A study of Saccharomyces cerevisiae with 22 samples.

Results

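Yeast genes of maltose and sucrose use and of glucose repression were examined in the genome-wide binding maps of Sus1. They are MAL11, MAL12, MAL13, MAL31, MAL32, MAL33, IMA1, SUC2, MIG1 and MIG2, that is 10 of 6002 nuclear protein-coding genes, and they lie at 5 loci. The genes were chosen by name and because of measured values, since MAL and MIG2 promoters were already known to hold very tall peaks in the list of spt8Δ at 25 °C. The height of those peaks in that list is therefore a description here and no finding. Sus1, a small protein shared by the coactivator SAGA and the mRNA export complex TREX-2, carried a MYC tag and was mapped by ChIP-exo, an assay that digests immunoprecipitated DNA with an exonuclease until it reaches a cross-linked protein, so that sequenced ends mark the borders of binding. For every gene, all peak summits were listed from 1000 bp before the start codon to 150 bp after the stop codon, which gave 237 distinct summits over 6 lists.

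All strains were haploid Mat a derivatives of BY4741 (leu2Δ0, his3Δ1, met15Δ0 and ura3Δ0) that carried SUS1-MYC::HIS3 and grew in YPD, a rich medium that contains glucose. The first mutant was spt8::KanMX4 (spt8Δ), and the second carried an SPT7 gene cut short at its 3′ end and marked with KanMX4 (spt7 truncation), which the sample labels call a deletion. Spt8 is absent or not held in SAGA in these mutants, as in the natural variant of the complex named SLIK. Each mutant and the wild type were sampled after a heat shock of 15 min at 37 °C, after which the labels describe a shift back to 25 °C for the cross-linking with formaldehyde, and without it at 25 °C. The labels give 22 samples, of which 4 carried no tag and were not analysed here, and they number 3 replicates for each tagged condition, whereas the study's methods speak of 2 biological replicates. One peak list was used for each strain and temperature, so there was no spread between replicates, and no difference below was tested.

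The lists held 17390 peaks for spt8Δ at 37 °C, 16593 for spt8Δ at 25 °C, 20179 for the spt7 truncation at 37 °C, and 18085 for the spt7 truncation at 25 °C. They held 17694 for wild type at 37 °C and 16887 for wild type at 25 °C. Fold enrichment in the lists compares the height of a peak with a background in its own list, so it does not measure a change between lists. Ranks by fold enrichment within a list (1 is the tallest peak) are given beside it. The height in reads and the background were solved from the deposited fold enrichment and p-value. The lowest background of a list was at most 36.3 reads, in the spt7 truncation at 37 °C, and at least 5.98 reads, in wild type at 37 °C. At many summits of the genes described here the background equalled the lowest one of its list. The median fold enrichment of a list lay between 2.33 and 3.49. The maximum was 946-fold in spt8Δ at 25 °C, whereas the highest peaks of the other 5 lists were between 14.2-fold and 39.6-fold. As a check of the labels, the part of SPT7 beyond the truncation point held no summit in either list of the spt7 truncation, but wild type at 25 °C had none there either. The coding region of SPT8 held no summit in any list, so it could not be used.

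Yeast splits maltose with an α-glucosidase that is made together with a permease from a shared divergent promoter, and a zinc-cluster activator encoded beside them switches both on when maltose is present. The MAL1 locus near the right end of chromosome VII and the MAL3 locus near the right end of chromosome II are copies of this unit, and their activators are regarded as non-functional in the reference strain S288C from which BY4741 derives. When glucose is plentiful, the zinc-finger repressors Mig1 and Mig2 bind the promoters of such genes and of SUC2, and they call in the corepressor Cyc8-Tup1. The kinase Snf1 removes Mig1 from the nucleus when glucose runs out. SAGA is known as a coactivator of many inducible promoters of this kind.

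The results turn on 4 sites in these promoters, which were taken as the peaks of the 10 genes that rank among the 20 tallest of spt8Δ at 25 °C, a choice made after seeing the values. The 101 bases centred on each summit are shown because the summits of 3 of them lie beside the same spaced pair of triplets. They are read from the RefSeq genome sequence of the build of the lists (sacCer3, which is R64) on the plus strand, and capitals mark matches to CCGNNNNNNNNNCCG on either strand, a pattern chosen after the data were seen.
MIG2 promoter, chr7:95466-95566: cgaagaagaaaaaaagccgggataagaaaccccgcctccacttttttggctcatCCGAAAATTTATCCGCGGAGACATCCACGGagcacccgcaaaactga
MAL11-MAL12 promoter, chr7:1076230-1076330: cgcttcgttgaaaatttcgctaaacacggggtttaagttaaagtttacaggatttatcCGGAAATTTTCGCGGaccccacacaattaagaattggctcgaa
MAL31-MAL32 promoter, chr2:804983-805083: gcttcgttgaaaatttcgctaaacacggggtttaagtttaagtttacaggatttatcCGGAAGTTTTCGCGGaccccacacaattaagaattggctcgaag
MAL13-IMA1 promoter, chr7:1069476-1069576: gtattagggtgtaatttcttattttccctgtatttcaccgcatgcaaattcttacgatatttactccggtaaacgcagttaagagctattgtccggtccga

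The stretch of MIG2 has 2 matches that follow each other without a gap, from 4 to 18 and from 19 to 33 bp after the summit. Those of the MAL1 and MAL3 permease-maltase promoters have 1 match each, from 8 to 22 and from 7 to 21 bp after the summit. The 2 MAL stretches were 96.1% identical to each other, with unmatched end bases counted as gaps, so they are copies and not separate instances of the pattern. The MAL13-IMA1 stretch has no match.

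All 10 genes had at least 1 summit in the window in spt8Δ at 37 °C, in spt8Δ at 25 °C, in the spt7 truncation at 25 °C, in wild type at 37 °C and in wild type at 25 °C. In the spt7 truncation at 37 °C it was 9 genes, and MAL12 had none. The share of all genes with a summit was 87.2% in spt8Δ at 37 °C, 90.3% in spt8Δ at 25 °C, 89.8% in the spt7 truncation at 37 °C, and 89.6% in the spt7 truncation at 25 °C. It was 92.7% in wild type at 37 °C and 90.8% in wild type at 25 °C. In the 500 bp before the start codon, 6 genes had a summit in spt8Δ at 37 °C (40.2% of all genes), 8 in spt8Δ at 25 °C (41.8%), 5 in the spt7 truncation at 37 °C (40.8%), and 3 in the spt7 truncation at 25 °C (38.0%). Such a summit was found for 9 genes in wild type at 37 °C (44.8%) and for 7 in wild type at 25 °C (39.7%). Of the 263 pairs of a gene and a summit, 166 lay in a coding region, 91 upstream and 6 after the stop codon.

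The strongest summit of a gene stood in the top 1% of its list for 8 of the 10 genes in spt8Δ at 25 °C, where 3.3% of all genes had such a peak. It did so for 4 genes in wild type at 37 °C (3.58% of all genes) and for 2 genes in wild type at 25 °C (3.02%). No gene of the 10 reached the top 1% in spt8Δ at 37 °C (2.83%), the spt7 truncation at 37 °C (3.23%) or the spt7 truncation at 25 °C (2.9%). The lowest background was higher in these lists, at 28.8, 36.3 and 22.2 reads in that order. It was 7.99 reads in spt8Δ at 25 °C, 5.98 in wild type at 37 °C and 10.8 in wild type at 25 °C. Whether this bears on the ranks was not tested. Because divergent genes share a peak, the 8 genes in spt8Δ at 25 °C rest on 5 peaks, the 4 genes in wild type at 37 °C on 3 peaks, and the 2 genes in wild type at 25 °C, MAL11 and MAL12, on a single one.

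**Figure D1:**
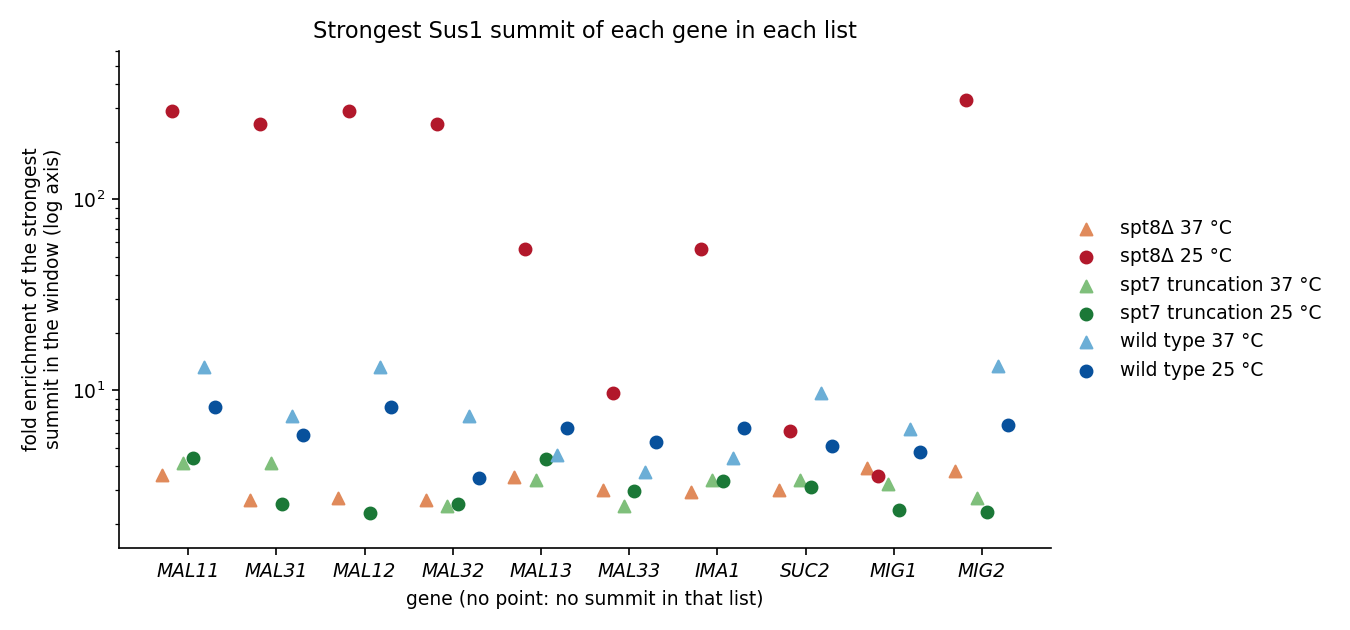
Fold enrichment (log axis) of the strongest summit in the window of each gene, from 1000 bp before the start codon to 150 bp after the stop codon, with 1 point for each of the 6 lists. The spt8Δ 25 °C points of MAL11, MAL31, MAL12, MAL32 and MIG2 lie between 249 and 332, above every other point of the plot, and MAL12 has no point in the spt7 truncation at 37 °C.

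The median of the strongest summit over the 10 genes was 3.02-fold in spt8Δ at 37 °C (2.88-fold over all genes), 152-fold in spt8Δ at 25 °C (4.22-fold), 3.33-fold in the spt7 truncation at 37 °C (2.84-fold), and 2.76-fold in the spt7 truncation at 25 °C (3.26-fold). It was 7.31-fold in wild type at 37 °C (4.64-fold) and 6.11-fold in wild type at 25 °C (3.9-fold). Genes without a summit counted as 0 in these medians. The median of the 10 genes was above that of all genes in every list other than the spt7 truncation at 25 °C. In that list only 3 of the 10 were above the median gene, against 7 in spt8Δ at 37 °C, 9 in spt8Δ at 25 °C, 6 in the spt7 truncation at 37 °C, 7 in wild type at 37 °C and 9 in wild type at 25 °C. The genes were chosen by their peaks in spt8Δ at 25 °C, so the values of that list are a description only. Divergent genes share peaks, so the 10 values are not separate. The median of 7.31-fold in wild type at 37 °C is the peak shared by MAL31 and MAL32.

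The permease MAL11 (YGR289C, chr7:1073963-1075813, minus strand), a transporter of maltose and other α-glucosides, and the maltase MAL12 (YGR292W, chr7:1076599-1078353, plus strand), which cleaves maltose to glucose, share a promoter. Its peak had 2.75-fold enrichment and rank 5735 in spt8Δ at 37 °C, and 290-fold and rank 4 in spt8Δ at 25 °C. In wild type it had 13.3-fold enrichment and rank 22 at 37 °C, and 8.15-fold and rank 73 at 25 °C. Neither spt7-truncation list had a peak that overlapped it. The summit lay at -467 bp from the start codon of MAL11 and at -319 bp from that of MAL12 in spt8Δ at 25 °C. Those of the other 3 lists lay 13 bp, -17 bp and 5 bp from it in spt8Δ at 37 °C, wild type at 37 °C and wild type at 25 °C. In reads, the height was 2607 over a background of 7.99 in spt8Δ at 25 °C, 92 over 5.98 in wild type at 37 °C and 95 over 10.8 in wild type at 25 °C. In spt8Δ at 37 °C it was 81 over 28.8. The counting intervals of the fold enrichment (exact Poisson, 95%) were 279 to 301 in spt8Δ at 25 °C, 10.8 to 16.3 in wild type at 37 °C and 6.61 to 9.95 in wild type at 25 °C. They cover the counting of reads only and not the variation between cultures.

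The rest of MAL11 carried 23 summits in its coding region over the 6 lists. The tallest were 7.56-fold at 1743 bp in spt8Δ at 25 °C (rank 227) and 7.39-fold at 1793 bp in wild type at 25 °C (rank 129). The wild-type one was itself in the top 1% of its list. The strongest coding summits in the spt7-truncation lists, 4.19-fold at 861 bp after the start codon at 37 °C (rank 511) and 4.44-fold at 840 bp at 25 °C (rank 853), were also the strongest of the whole gene there. In spt8Δ at 37 °C the strongest summit of MAL11 was likewise in the coding region, 3.59-fold at 450 bp.

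The MAL3 copy consists of the permease MAL31 (YBR298C, chr2:802631-804475, minus strand) and the maltase MAL32 (YBR299W, chr2:805351-807105, plus strand), and the small annotated frame YBR298C-A lies between them. In spt8Δ at 25 °C the promoter held a peak of 249-fold (rank 5) that was 585 bp wide, whose summit stood at -558 bp relative to the MAL31 start codon and at -318 bp relative to that of MAL32. The strongest overlapping peak was 2.68-fold (rank 6358) in spt8Δ at 37 °C, 2.47-fold (rank 8218) in the spt7 truncation at 37 °C, and 2.54-fold (rank 10299) in the spt7 truncation at 25 °C. It was 7.31-fold (rank 520) in wild type at 37 °C and 3.48-fold (rank 6010) in wild type at 25 °C. Only the wild-type summit at 37 °C lay near that of spt8Δ at 25 °C, 9 bp away. The others were -426 bp from it in spt8Δ at 37 °C, -420 bp in the spt7 truncation at 37 °C, -254 bp in the spt7 truncation at 25 °C and -80 bp in wild type at 25 °C, so they overlap the wide peak without marking the same place.

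Summits were called on both the MAL1 and the MAL3 promoter, although the loci are copies. The 2 intergenic regions aligned over 484 and 488 bases up to the maltase start codons with 96.5% identity. In addition, 80.3% of the 50-base words in the 500 bp before MAL12 and before MAL32 occur once in the genome. Of all 237 distinct summits, 1 lay in 50 bases that occur more than once. The MAL stretches printed above, however, differ by 2 mismatches, so few bases tell the promoters apart. The 2 gap bases of their alignment are unmatched ends, because the stretches are centred on summits at slightly different places of the copies. The summit heights in spt8Δ at 25 °C were 2607 reads at MAL11-MAL12 and 2578 reads at MAL31-MAL32. Whether reads of one promoter were placed on the other was not tested. The maltase coding regions themselves differ at 8 of 1755 bases (99.5% identity). Only 16.4% of the 50-base words of MAL12 and 15.9% of those of MAL32 are unique. MAL12 and MAL32 held 5 and 2 coding summits over the 6 lists, or 0.475 and 0.19 per kb and list. The coding regions of the other 8 genes, with 91.9% to 100% unique words, held between 0.435 per kb and list in MIG2 and 3.05 in MAL13, so the density of MIG2 was below that of MAL12 although its words are all unique. How reads with several placements were treated is not given in the sources used here, and its part in the low number of maltase summits was not tested.

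**Figure D2:**
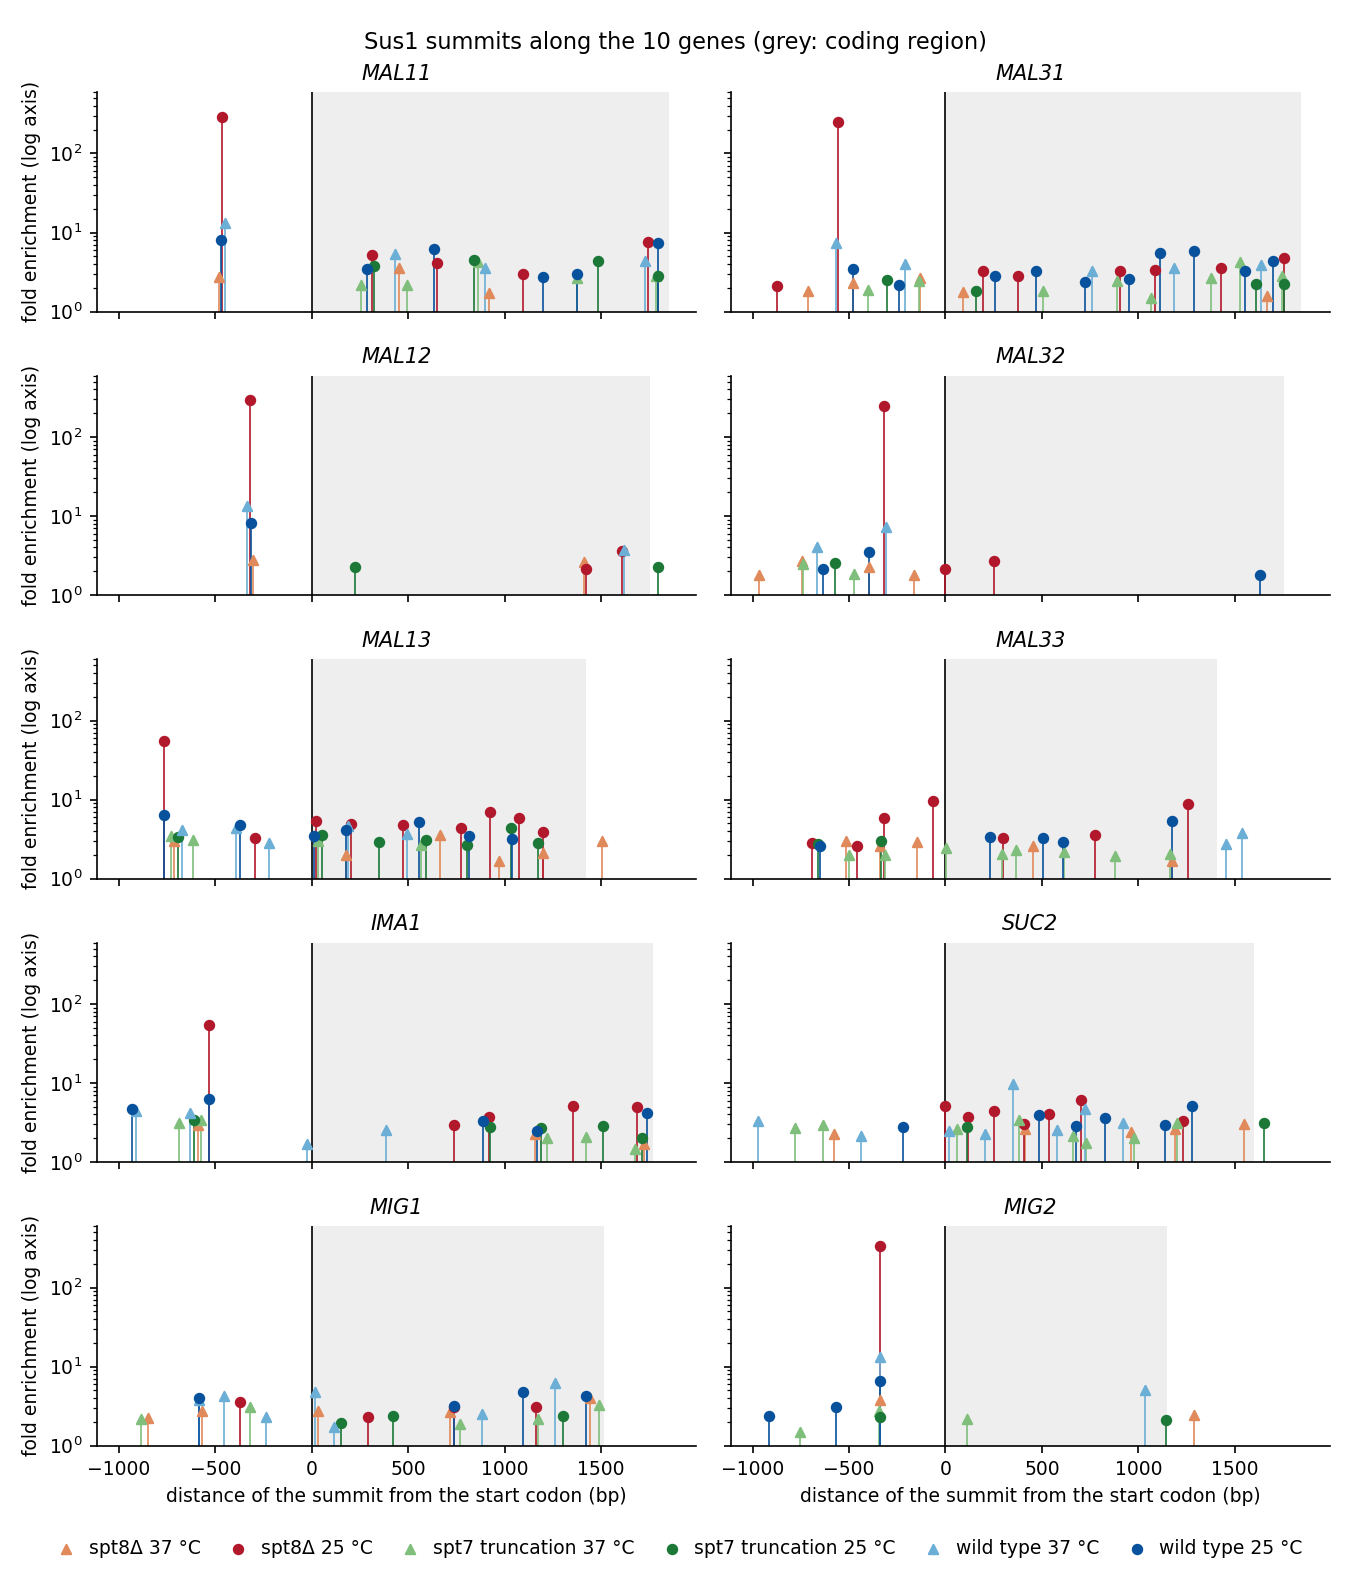
Fold enrichment (log axis) of each summit against its distance from the start codon (bp) for the 10 genes in the 6 lists, with the coding region in grey. Tall summits of spt8Δ at 25 °C stand in the promoters of MAL11, MAL12, MAL31, MAL32, MAL13, IMA1 and MIG2, the coding regions of MAL12 and MAL32 are nearly empty, and the promoter summits of MIG2 at -342 or -343 bp fall on the same place in all 6 lists.

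MAL13 (YGR288W, chr7:1070293-1071714, plus strand) encodes the MAL1 activator and shares its upstream region with IMA1 (YGR287C, chr7:1067222-1068991, minus strand), an isomaltase that cleaves isomaltose and related sugars. The peak between them had 2.95-fold enrichment and rank 4342 in spt8Δ at 37 °C, 54.7-fold and rank 10 in spt8Δ at 25 °C, 3.41-fold and rank 1616 in the spt7 truncation at 37 °C, and 3.36-fold and rank 3701 in the spt7 truncation at 25 °C. In wild type it had 4.13-fold enrichment and rank 5907 at 37 °C, and 6.37-fold and rank 324 at 25 °C. Its summit in spt8Δ at 25 °C, at -767 bp from MAL13 and -535 bp from IMA1, coincided to the base with that in wild type at 25 °C. The summits of the other lists lay 54 bp from it in spt8Δ at 37 °C, 37 bp in the spt7 truncation at 37 °C, 75 bp in the spt7 truncation at 25 °C and 94 bp in wild type at 37 °C. The peak of spt8Δ at 25 °C was 740 bp wide and the least tall of the 4 sites in spt8Δ at 25 °C, with 491 reads at the summit.

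MAL33 (YBR297W, chr2:800523-801929, plus strand), the MAL3 activator, does not lie next to a tall site. Its strongest summit was 3.02-fold in spt8Δ at 37 °C, 9.67-fold in spt8Δ at 25 °C, 2.47-fold in the spt7 truncation at 37 °C, and 2.97-fold in the spt7 truncation at 25 °C. It was 3.73-fold in wild type at 37 °C and 5.35-fold in wild type at 25 °C. The 9.67-fold summit, at -65 bp, ranked 93 and was the next peak of these genes after the 4 tall sites. A summit of 8.67-fold in the coding region, at 1258 bp, ranked 135 in the same list. A weaker summit between -341 and -311 bp recurred in both spt8Δ lists and in both spt7-truncation lists, at 2.01-fold to 5.78-fold, and was in neither wild-type list. It ranked 7699 in spt8Δ at 37 °C, 965 in spt8Δ at 25 °C, 14831 in the spt7 truncation at 37 °C and 6211 in the spt7 truncation at 25 °C. It was 1 of 20 positions at MAL33 when summits up to 20 bp apart were joined. How often such a pattern occurs over all genes was not counted, so nothing is read from it.

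SUC2 (YIL162W, chr9:37385-38983, plus strand), the invertase that cleaves sucrose outside the cell, had its strongest summit in the coding region in 5 lists and after the stop codon in the spt7 truncation at 25 °C. This summit was 3.02-fold in spt8Δ at 37 °C, 6.12-fold in spt8Δ at 25 °C, 3.41-fold in the spt7 truncation at 37 °C, and 3.14-fold in the spt7 truncation at 25 °C. It was 9.75-fold in wild type at 37 °C and 5.1-fold in wild type at 25 °C. The 9.75-fold summit lay 352 bp inside the coding region and ranked 94. Upstream of SUC2, within 500 bp, 3 of the lists had a summit, of 5.12-fold at -2 bp in spt8Δ at 25 °C, 2.15-fold in wild type at 37 °C and 2.8-fold in wild type at 25 °C. The coding region held 28 summits over the 6 lists.

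MIG1 (YGL035C, chr7:431548-433062, minus strand), the main repressor of glucose repression, stayed outside the top 1% in every list. Its strongest summit was 3.95-fold (rank 910) in spt8Δ at 37 °C, 3.56-fold (rank 6662) in spt8Δ at 25 °C, 3.25-fold (rank 2147) in the spt7 truncation at 37 °C, and 2.36-fold (rank 12387) in the spt7 truncation at 25 °C. It was 6.28-fold (rank 1216) in wild type at 37 °C and 4.78-fold (rank 1661) in wild type at 25 °C. In spt8Δ at 25 °C it was the only one of the 10 genes below the median gene, at percentile 34.3 of all genes.

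MIG2 (YGL209W, chr7:95858-97006, plus strand), which represses together with Mig1 and is itself induced by glucose, had a promoter peak in all 6 lists. It had 3.8-fold enrichment and rank 1137 in spt8Δ at 37 °C, 332-fold and rank 3 in spt8Δ at 25 °C, 2.73-fold and rank 5535 in the spt7 truncation at 37 °C, and 2.32-fold and rank 12891 in the spt7 truncation at 25 °C. In wild type it had 13.4-fold enrichment and rank 21 at 37 °C, and 6.61-fold and rank 273 at 25 °C. The height was 4446 reads over a background of 12.4 in spt8Δ at 25 °C, 132 reads over 8.96 in wild type at 37 °C and 116 reads over 16.7 in wild type at 25 °C. In spt8Δ at 37 °C it was 167 reads over 43.2. The spt7 truncation had 150 reads over 54.4 at 37 °C and 81 reads over 34.4 at 25 °C. The backgrounds of spt8Δ at 37 °C and of the spt7 truncation were thus above those of wild type. Their reads were above those of wild type in both 37 °C lists, and below them in the spt7 truncation at 25 °C. All were far below the 4446 reads of spt8Δ at 25 °C. Whether the background bears on the fold enrichments was not tested. The counting interval of the fold enrichment was 3.25 to 4.42 in spt8Δ at 37 °C, 323 to 342 in spt8Δ at 25 °C, 11.2 to 15.8 in wild type at 37 °C and 5.48 to 7.92 in wild type at 25 °C.

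The MIG2 promoter summit had nearly the same position in each list, -342 bp from the start codon in 5 lists and -343 bp in the spt7 truncation at 37 °C. Of the 16593 summits of spt8Δ at 25 °C, only 2 (0.0121%) had a summit within 1 bp in all of the other 5 lists, and the second lay in the window of no protein-coding gene. Within 20 bp it was 120 summits (0.723%), and that of MIG2 was the only one of the 10 genes. The tolerance was chosen after the MIG2 values had been seen. The position was not used to choose the gene, whereas its height in spt8Δ at 25 °C was.

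With heat, the lists of each strain can only be set side by side. In spt8Δ, none of the 10 genes had a top 1% peak at 37 °C and not at 25 °C (1.73% of all genes), and 8 had one at 25 °C and not at 37 °C (2.2% of all genes). That difference follows in part from the choice of the genes by their peaks at 25 °C. In the spt7 truncation, no gene had a top 1% peak at either temperature (0.85% of all genes had one only at 37 °C and 0.516% only at 25 °C). In wild type, MIG2 and SUC2 had one only at 37 °C (2.93% of all genes) and no gene only at 25 °C (2.37%), while MAL11 and MAL12 had one at both.

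Between the strains at 37 °C, 0 genes had a top 1% peak in spt8Δ and not in wild type (1.92% of all genes), and MIG2, MAL11, MAL12 and SUC2 had one in wild type and not in spt8Δ (2.67%). At 37 °C, 0 genes had one in the spt7 truncation and not in wild type (2.12%), and the same 4 genes the reverse (2.47%). At 25 °C, 6 genes had one in spt8Δ and not in wild type (2.58% of all genes) and 0 genes the reverse (2.3%). The genes were chosen by their peaks in spt8Δ at 25 °C, so this difference follows in part from the choice. MAL31 and MAL32 share a peak there, as do MAL13 and IMA1, so the 6 genes are not separate cases. No gene had one in the spt7 truncation at 25 °C and not in wild type (1.95%), and MAL11 and MAL12 had one in wild type and not in the spt7 truncation (2.07%). The mutants are set against the same wild-type lists, so these comparisons are not independent of each other.

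**Figure D3:**
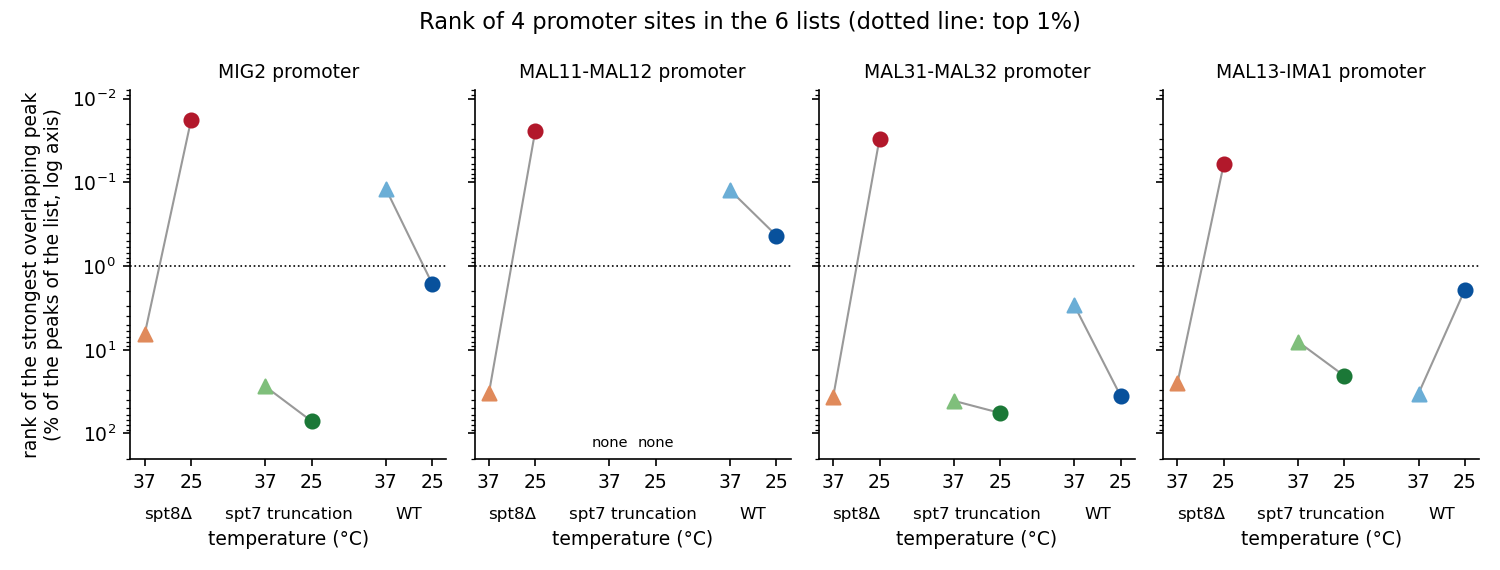
Rank of the strongest overlapping peak at the 4 promoter sites, in percent of the peaks of its list (log axis, tallest peaks at the top), with triangles for 37 °C and circles for 25 °C in spt8Δ, spt7 truncation and wild type. In spt8Δ the MIG2 site stood at 6.54% at 37 °C and at 0.0181% at 25 °C, whereas in wild type it stood at 0.119% at 37 °C and at 1.62% at 25 °C, and no peak overlapped the MAL11-MAL12 site in the spt7 truncation.

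The 20 tallest peaks of spt8Δ at 25 °C place the genes among others. The 2 tallest lay upstream of YHR210C, which encodes a protein resembling aldose 1-epimerases, with 946-fold enrichment, and upstream of HXT3, a low-affinity glucose transporter, with 832-fold enrichment. MIG2, the MAL11-MAL12 promoter and the MAL31-MAL32 promoter came next, then the promoter of the isomaltase IMA5 and the hexose transporter HXT8 with 237-fold enrichment, and the MAL13-IMA1 peak had rank 10. Further down were REE1 (52.5-fold), the regulator of respiratory growth ZNF1 (33.6-fold), the pyruvate kinase CDC19 (32.2-fold), and the divergent region of the isomaltase IMA2 and the hexose transporter HXT11 (28.9-fold). The remaining peaks lay upstream of SKS1 and RMI1, RIB4 and RRP40, UBC4, RGI2 and VHR1, PMA1, PCL1, GLN1, CIS1 and HIT1. The YHR210C and HXT3 peaks were also the strongest in both wild-type lists, with YHR210C at rank 2 and HXT3 at rank 1 in wild type at 37 °C and YHR210C at rank 1 and HXT3 at rank 2 in wild type at 25 °C.

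**Figure D4:**
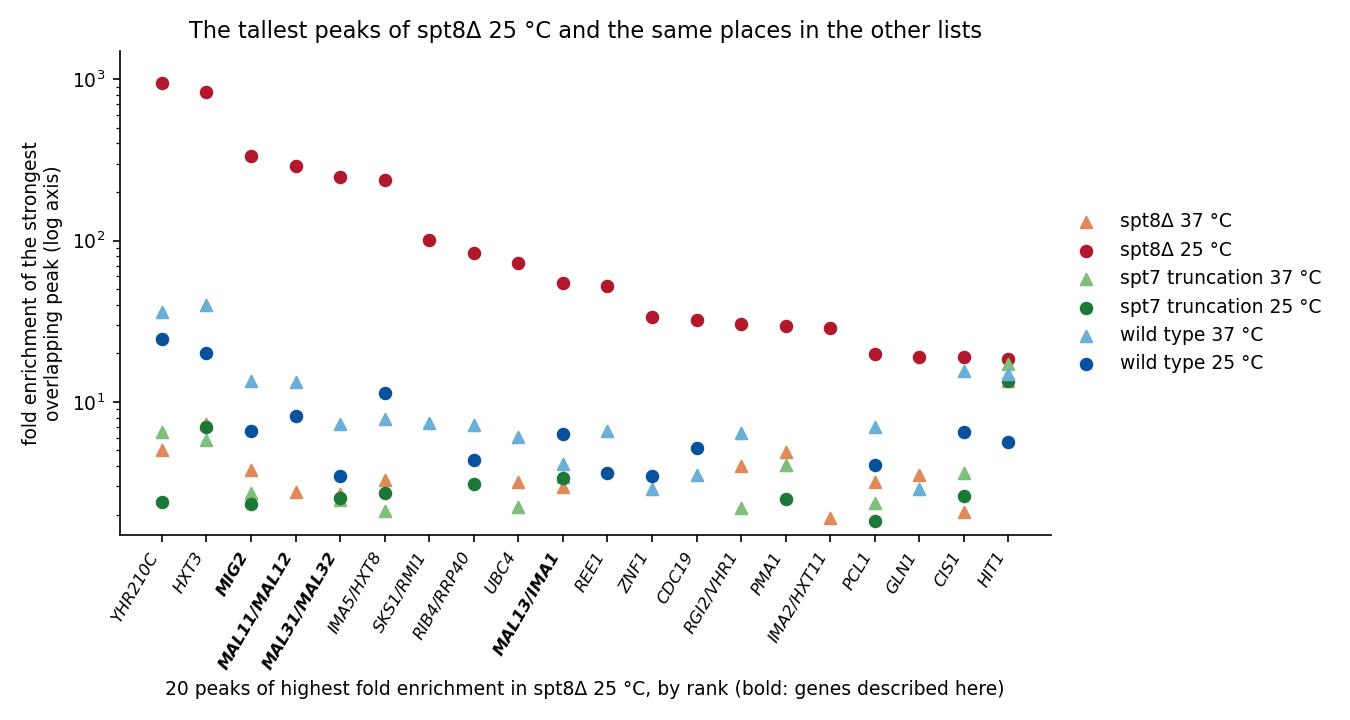
Fold enrichment (log axis) of the 20 tallest peaks of spt8Δ at 25 °C, and of the strongest overlapping peak in the other 5 lists, ordered by rank and named by the genes whose windows hold the summit. The spt8Δ 25 °C points run from 946 to 18.5, and the MIG2, MAL11-MAL12, MAL31-MAL32 and MAL13-IMA1 peaks are at ranks 3, 4, 5 and 10, while the same places stand at or below 13.4 in the other lists.

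The spaced pair of triplets CCGNNNNNNNNNCCG was looked for within 50 bp of each summit, on both strands. It was present at 8 of the 10 tallest peaks of spt8Δ at 25 °C and at 10 of the 20 tallest, against 0.977% of all windows of 101 bases in the genome. The pattern was picked from the MIG2 and MAL summits, which are among these peaks, and the MAL stretches are copies. The shares among the tallest peaks of this list are therefore a description and no support for the pattern. The windows of the genome include coding regions as well as promoters. At those 8 peaks the match began between 0 and 8 bp after the summit. The other 2 matches among the 20 tallest began 3 bp after the summit at CDC19 and at -32 bp from the summit at RGI2 and VHR1. Over all peaks of a list it was found at 1.22% in spt8Δ at 37 °C, 1.18% in spt8Δ at 25 °C, 1.08% in the spt7 truncation at 37 °C, and 1.01% in the spt7 truncation at 25 °C. The share was 1.09% in wild type at 37 °C and 1.13% in wild type at 25 °C. Of the 10 tallest peaks, 2 had it in wild type at 37 °C and 2 in wild type at 25 °C, whereas 0 had it in spt8Δ at 37 °C, in the spt7 truncation at 37 °C and in the spt7 truncation at 25 °C. The YHR210C and HXT3 peaks, which are among the 8 of spt8Δ at 25 °C, were also the strongest in both wild-type lists. The wild-type matches are therefore not taken as separate instances of the pattern. The following 51 bases around summits of other genes are shown for comparison with the MIG2 and MAL stretches above, with the same strand, build and capitals.
HXT3 promoter, chr4:1164994-1165044: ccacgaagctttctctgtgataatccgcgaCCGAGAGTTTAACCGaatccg
YHR210C promoter, chr8:521966-522016: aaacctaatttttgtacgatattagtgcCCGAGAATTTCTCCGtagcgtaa
IMA5-HXT8 promoter, chr10:26583-26633: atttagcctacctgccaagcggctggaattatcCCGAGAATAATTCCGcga
CDC19 promoter, chr1:71029-71079: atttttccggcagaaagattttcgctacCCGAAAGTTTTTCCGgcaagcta

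In these 4 stretches the match starts 3 to 8 bp after the summit. A match is a description of letters and not evidence of a bound factor.

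**Figure D5:**
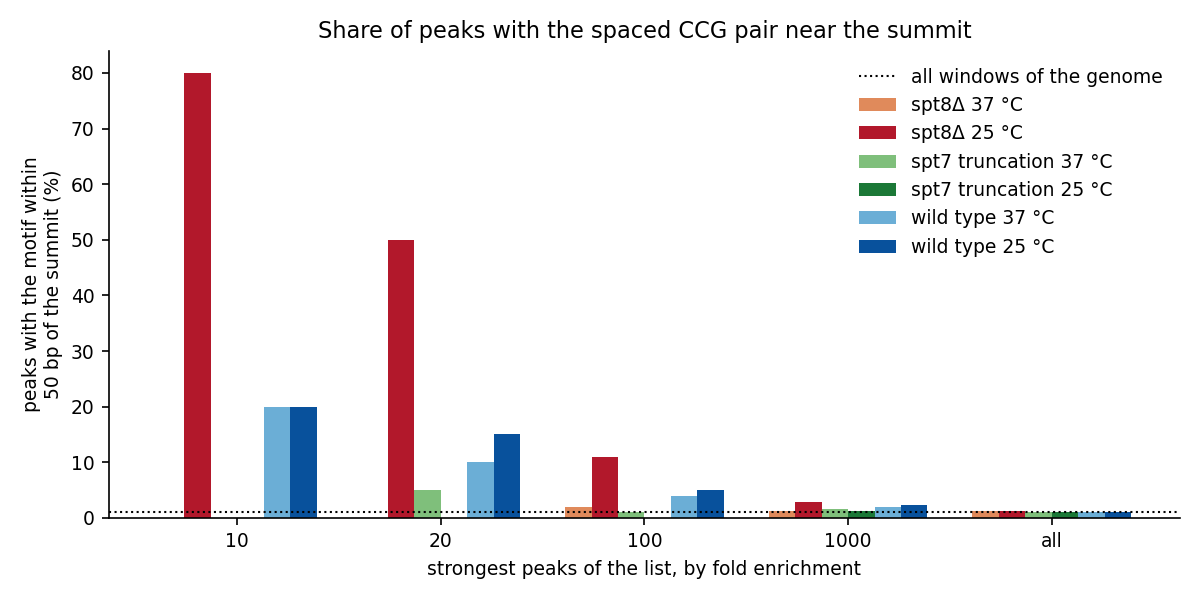
Share of peaks (%) with the spaced pair of triplets within 50 bp of the summit among the 10, 20, 100 and 1000 strongest peaks and among all peaks of each list. The bar of spt8Δ at 25 °C is at 80% for the 10 strongest and at 50% for the 20 strongest peaks, the wild-type bars start at 20%, and all lists end near the dotted line of all windows of the genome at 0.977%. The pattern was picked from summits that are among the strongest peaks of spt8Δ at 25 °C. The YHR210C and HXT3 peaks are among the 10 strongest both there and in the wild-type lists, so the bars are not independent.

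The 500 bp before the start codons were searched on both strands for this pattern and for published ones. Matches to CCGNNNNNNNNNCCG lay before 5 of the 10 genes, MAL11, MAL12, MAL32, MAL33 and MIG2, and before 4.68% of all genes, and the MAL11 and MAL12 matches are the same bases. The pattern was picked from the MIG2 and MAL summits themselves and the MAL1 and MAL3 matches are copies, so nothing is read from that count. The hexamers of the Mig1 site, which are CCGGGG and CTGGGG as well as GCGGGG and GTGGGG, were found before all 10 genes and before 22.7% of all genes. The hexamers before MAL11 and MAL12 are the same bases and that before MAL32 is a copy, so the 10 are not separate matches. Next to the tall summits such a hexamer lay from -21 to -16 bp at MIG2, from 24 to 29 bp at MAL11-MAL12 and from 23 to 28 bp at MAL31-MAL32. The consensus of the MAL activator, a pair of short GC-containing triplets with a spacer, was found before 9 of the 10 genes, MAL13 being the exception, but also before 49.1% of all genes. At both permease-maltase promoters it overlaps the capitals printed above by all but its first base. The stress element AGGGG was found before 3 of the genes (34.1% of all genes), TATAAA before 7 (60.5%) and the Reb1 site CGGGTAA before 0 (10.1%).

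Other genes of the pathway were taken from 4 lists with 34 genes in all. Of these, 0 had a top 1% peak in spt8Δ at 37 °C (2.83% of all genes), 4 in spt8Δ at 25 °C (3.3%), 0 in the spt7 truncation at 37 °C (3.23%) and 0 in the spt7 truncation at 25 °C (2.9%). In wild type it was 0 at 37 °C (3.58%) and 2 at 25 °C (3.02%). Among 34 genes, 0 or 2 is a count near these shares, and the count of 4 in spt8Δ at 25 °C is above its share but was not tested. These gene lists were chosen with earlier results of the data known, so nothing is read from that count. In spt8Δ at 25 °C 3 of the 4 came from the 8 maltose and isomaltose genes, namely IMA5, ZNF1 and IMA2. The fourth was REG2, a regulatory subunit of the phosphatase that opposes Snf1, with 11.2-fold enrichment at -388 bp (rank 52). In wild type at 25 °C they were IMA5, with 11.4-fold enrichment (rank 14), and SIP4, an activator of gluconeogenic genes, with 7.47-fold enrichment (rank 120). None of the 6 repressors and corepressors reached the top 1% in any list. Their median strongest summit was 3.73-fold in spt8Δ at 25 °C, against 4.22-fold over all genes.

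By the within-list percentiles of the strongest summit over the 6 lists, the genes most like MAL32 were IRC18, BLI1 and MSS18, at distances of 22.3, 23.4 and 23.7. Those most like MIG2 were REE1, LFT1 and AIM45, at 25.8, 30.3 and 31.1. The distance is Euclidean over 6 percentiles, and REE1 stood at percentile 99.7 in spt8Δ at 25 °C, where MIG2 stood at 100.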

How the data were processed

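Per the labels, reads were processed with CASAVA 1.7 and BWA 0.6.2. The study's methods name a different, older version of BWA and give sacCer3 as the genome. The authors deposited 1 peak list for each strain and temperature, and each peak in it has a fold enrichment (the ratio of its summit height to nearby background), a -log10 p and a -log10 q. The lists have the layout of MACS2. The peak caller, its control and which replicates were pooled are not given in the sources used here, so values carry no error between samples. Every deposited peak has a q-value of at most 0.05.

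Lists were assigned to strain and temperature by the names the authors gave them. Summits were assigned to every RefSeq (R64) gene whose window held them, and peaks were ranked by fold enrichment. Heights and Poisson backgrounds were solved from fold enrichment and p-value with a pseudocount of 1 and came out within 0.05 of a whole number for 99.99% to 100% of peaks. Intervals are exact Poisson at 95%. The members and gene lists were chosen with earlier results of these data known. All 10 members are named, and other pathway genes only with a top 1% peak in at least 1 list. The genes around the 20 tallest peaks of spt8Δ at 25 °C and the 3 genes nearest to MAL32 and to MIG2 are named as well. Alternatives were the peak midpoint, the upstream 500 bp, a q-value under 1e-05, 16593 peaks in every list, unique 50-base words, rank by -log10 q, 50% reciprocal overlap, summits within 50 bp and 36-base words. Python 3.11.15, numpy 2.4.6, pandas 2.3.3, scipy 1.17.1 and Biopython 1.88 were used, and the counting and the solver were tested on simulated data.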

Additional observations from a re-analysis of the deposited data

Results flagged for a closer look

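At all 4 promoter sites the rank moved with heat one way in one strain and the other way in another, and these differences were not tested. The rank is in percent of the peaks of the list, so a positive difference of 37 °C minus 25 °C means further down at 37 °C. At the MIG2 site the difference was 6.52 points in spt8Δ, -43.9 points in the spt7 truncation and -1.5 points in wild type. At the MAL11-MAL12 site it was 33.0 points in spt8Δ and -0.308 points in wild type, and the spt7 truncation had no peak there. At the MAL31-MAL32 site it was 36.6 points in spt8Δ, -16.2 points in the spt7 truncation and -32.7 points in wild type. At the MAL13-IMA1 site it was 24.9 points in spt8Δ, -12.5 points in the spt7 truncation and 31.5 points in wild type. The sites were chosen for their height in spt8Δ at 25 °C, so a lower rank in the other spt8Δ list is built into the choice. At the MIG2, MAL11-MAL12 and MAL31-MAL32 sites only spt8Δ moved down with heat, so the opposite signs there rest on that choice. The lists of the spt7 truncation and of wild type took no part in that choice. Only at the MAL13-IMA1 site did their ranks move in opposite ways. The fold enrichment of the spt7 truncation there was nearly the same, 3.36 (counting interval 2.66 to 4.19) at 25 °C and 3.41 (2.86 to 4.04) at 37 °C. In wild type it was 6.37 (5.02 to 7.97) at 25 °C and 4.13 (2.81 to 5.87) at 37 °C. At the MIG2 and MAL31-MAL32 sites the counting intervals of the spt7 truncation also overlapped between temperatures. Its rank moves are thus not read as changes in enrichment. At the MAL31-MAL32 site the strongest overlapping peaks of spt8Δ at 37 °C, of both spt7-truncation lists and of wild type at 25 °C lay more than 50 bp, the distance used for a shared summit, from the summit of spt8Δ at 25 °C. At the MAL13-IMA1 site the same held for spt8Δ at 37 °C, the spt7 truncation at 25 °C and wild type at 37 °C.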

How the results depend on the processing

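No paired analysis was possible because the labels number replicates but each strain and temperature has 1 pooled list, and for the same reason no replicate could be left out. Of 75 alternative values, 64 stayed within 1.5 times the main count. With the 500 bp before the start codon alone, the genes with a summit were 6 in spt8Δ at 37 °C, 5 in the spt7 truncation at 37 °C and 3 in the spt7 truncation at 25 °C, and those with a top 1% peak were 5 in spt8Δ at 25 °C, since the tall summits lie over 500 bp from the start codons of MAL31, MAL13 and IMA1. With a reciprocal overlap of 50%, the MIG2, MAL31-MAL32 and MAL13-IMA1 sites were found in 1 list each and the MAL11-MAL12 site in 2 lists, and with summits within 50 bp the MAL31-MAL32 site was found in 2 lists and the MAL13-IMA1 site in 3. The peaks of spt8Δ at 25 °C are wider than the others there. With 36 bases in place of 50, 2 summits lay in repeated sequence. The midpoint, the q-value under 1e-05, equal list sizes, unique words and rank by -log10 q left all counts within 1.5 times. Weak sites are called more easily in lists with more reads, which limits statements on absence.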
